A study of Rattus norvegicus with 5 samples.

Results

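A set of 8 genes linked to inherited or familial Parkinson disease was examined in neurons captured from the rat striatum: Lrrk2, Park7, Pink1, Vps35, Dnajc6, Synj1, Fbxo7 and Atp13a2. They are 8 genes of the 13811 tested, given as a list of symbols and found by name in the authors' deposited comparison. The list was chosen with earlier results of these data known. All 8 passed the filter on low counts, where 11919 of the 12054 genes in that comparison did. RNA was sequenced from neurons marked by a fluorescent tracer that travels back along the axon from its target, and then cut out by laser. Striatomesencephalic neurons, which send their axons to the midbrain and form the direct pathway, gave 2 libraries. Striatopallidal neurons, which send their axons to the pallidum and form the indirect pathway, gave 3 libraries. The labels name no genotype, strain, age or treatment apart from the tracer, and the sources used here do not say whether the replicates are separate animals or cell pools. P-values therefore measure the spread between these libraries, which may be technical.

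The 8 genes meet on the handling of membranes, lysosomes and mitochondria. Lrrk2 encodes a kinase that phosphorylates Rab GTPases on vesicles, and in rodents the striatum is known for strong Lrrk2 expression. Vps35 is a core subunit of retromer, which returns cargo from endosomes, and Dnajc6 (auxilin) and Synj1 (synaptojanin) strip the clathrin coat from newly formed synaptic vesicles. Pink1 encodes a kinase that marks damaged mitochondria for removal, Fbxo7 an F-box protein of SCF ubiquitin ligases that also acts in that removal, and Park7 encodes DJ-1, a protein that protects against oxidative stress. Atp13a2 encodes a P-type ATPase of the lysosome that exports polyamines. The dopamine neurons lost in the disease send their axons to both types of neuron captured here.

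Library totals ran from 20845178 to 22614680 counts in the striatomesencephalic libraries and from 22413168 to 24805062 counts in the striatopallidal libraries, so that 3 counts, the detection floor used, stood at 0.121 to 0.144 CPM (counts relative to the library total). Drd1, the dopamine receptor of the direct pathway, had 825 and 1065 TMM-scaled CPM in the striatomesencephalic libraries, versus 390 to 512 in the striatopallidal libraries. Drd2, the dopamine receptor of the indirect pathway, had 138 and 108 TMM-scaled CPM in the striatomesencephalic libraries, versus 493 to 533 in the striatopallidal libraries. Both receptors followed the labels, but neither was absent from the other group. Neither passed in edgeR's quasi-likelihood test over all genes (adjusted p = 0.779 for each). The marker sums that follow are CPM without TMM scaling. The 10 oligodendrocyte markers summed to 5979 and 7479 CPM in the striatomesencephalic libraries, versus 5348 to 7234 CPM in the striatopallidal libraries, and none of the 10 was at 0 in every library. The 8 astrocyte markers summed to 1037 to 1157 CPM in the striatomesencephalic libraries, versus 1017 to 1401 CPM in the striatopallidal libraries. The part of these other cells in the levels of the 8 genes was not tested. Striatopallidal replicate 2 held at least 10 counts for 11871 genes, against 12844 to 13969 in the other 4 libraries, and the log2 fold change of each of the 8 genes is given with and without it.

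Upstream sequence is shown for the genes whose libraries agreed best (Synj1) and least (Fbxo7) and for Pink1, whose order of libraries ran against that of Fbxo7. RefSeq's promoter table (build GRCr8, not the build of the counts) held windows for 7 of the 8 genes. Each sequence below holds the 250 bases before the annotated start, 5′ to 3′ on the strand of the gene, and capitals mark GGGCGG (the GC box) and CCAAT on either strand and the palindrome CACGTG (an E-box). The windows lie on the minus strand at chr7:19725181-19725430 for Fbxo7, chr5:155825951-155826200 for Pink1 and chr11:43755527-43755776 for Synj1.
Fbxo7: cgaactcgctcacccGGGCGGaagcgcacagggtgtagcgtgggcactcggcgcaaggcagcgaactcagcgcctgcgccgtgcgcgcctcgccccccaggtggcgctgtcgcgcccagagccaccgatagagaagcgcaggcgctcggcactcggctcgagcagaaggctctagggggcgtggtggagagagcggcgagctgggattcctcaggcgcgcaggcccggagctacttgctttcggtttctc
Pink1: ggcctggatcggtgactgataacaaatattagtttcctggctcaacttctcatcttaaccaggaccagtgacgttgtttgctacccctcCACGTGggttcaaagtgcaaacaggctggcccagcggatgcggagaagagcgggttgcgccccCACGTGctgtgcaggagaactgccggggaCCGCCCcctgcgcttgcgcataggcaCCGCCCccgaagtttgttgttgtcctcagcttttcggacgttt
Synj1: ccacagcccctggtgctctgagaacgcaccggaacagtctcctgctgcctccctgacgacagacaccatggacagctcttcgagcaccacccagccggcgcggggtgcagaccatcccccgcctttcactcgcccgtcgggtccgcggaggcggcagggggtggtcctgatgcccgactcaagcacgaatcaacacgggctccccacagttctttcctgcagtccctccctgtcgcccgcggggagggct
The 3 windows hold 31, 16 and 20 CpG dinucleotides in Fbxo7, Pink1 and Synj1, where the median over 33469 RefSeq windows of the same length was 5. A GC box was found in 7 of the 9 windows of the 7 genes (6 of 7 genes, all but Synj1), and in 30.5% of all windows. The 9 windows held 12 to 31 CpG dinucleotides, and the part of base composition in these matches was not tested. Pink1 holds 2 copies of CACGTG, which 5.59% of all windows contain, and no other of the 7 genes has one. CCAAT was found in Vps35 and in 2 of 3 windows of Park7 (34.0% of all windows), and TATAAA in none of the 7 genes (12.9% of all windows). These are matches of letters only.

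No difference between the neuron types was detected for any of the 8 genes. In edgeR's quasi-likelihood test over all genes, 0 of 8 passed an adjusted p of 0.05, where 0% of 13811 genes did so, and 0 of 8 had an unadjusted p under 0.05, where 6.07% of all genes did. The smallest adjusted p among the 8 was 0.880. DESeq2, the exact test of edgeR and limma voom also called 0 of the 8, while over all genes they called 226 (1.64%), 45 (0.326%) and 0 (0%). The values of the 2 groups overlapped for every one of the 8 genes, where 21.6% of all genes had groups that did not overlap. The median log2 fold change, striatomesencephalic over striatopallidal, was 0.12 over the 8 genes and -0.06 over all genes tested, with 5 of the 8 above 0, where 47.4% of all genes were, and 3 below. What the test allows differs from gene to gene: the 95% interval of the fold stayed within 2-fold in either direction for 1 gene, Synj1. In counts simulated with the spread set to edgeR's trend, this test recovered 9 of 95 genes changed 4-fold at an adjusted p under 0.05. At that spread most differences of this size would not pass, but the spread of each of the 8 genes can differ from the trend. The 95% interval of the fold, not adjusted for the number of genes, reached past 4-fold for Park7 (0.487 to 5.52), Pink1 (0.303 to 4.12) and Fbxo7 (0.255 to 23.9). It did not for the other genes. In bulk libraries like these, fewer cells of a type and less RNA per cell cannot be told apart.

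**Figure D1:**
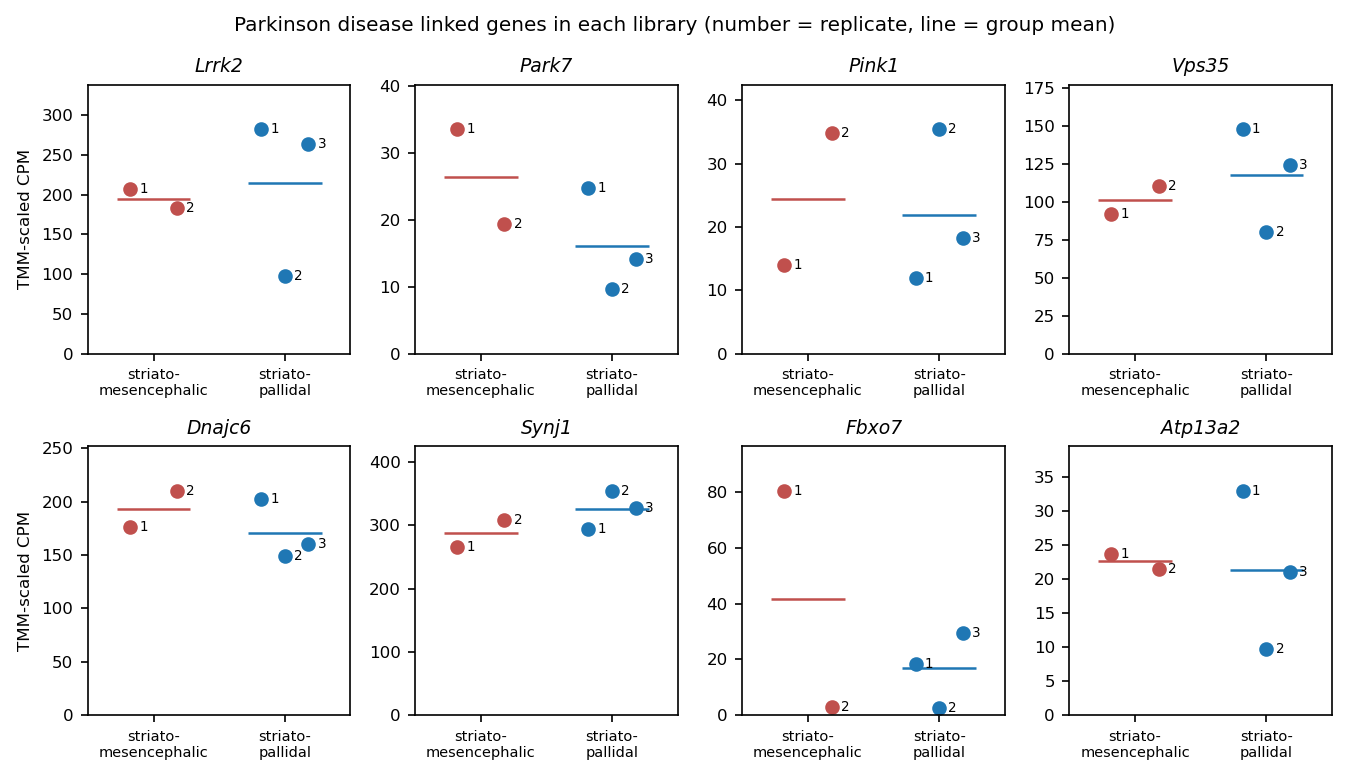
TMM-scaled CPM of each gene in each library, with striatomesencephalic libraries in red and striatopallidal libraries in blue. Each point is 1 library with its replicate number, lines are group means, and every vertical axis starts at 0. The 2 groups overlap in all 8 panels, and Fbxo7 runs from 2.55 to 80.5 CPM.

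Lrrk2, the Rab kinase, stood at 207 and 183 CPM in the striatomesencephalic libraries, versus 282, 97.8 and 264 CPM in the striatopallidal libraries (CPM here and below are scaled by TMM). The striatomesencephalic values lay between the low striatopallidal replicate 2 and the other 2 striatopallidal libraries. Group means were 195 ± 16.6 CPM (SD, n = 2) in the striatomesencephalic libraries and 215 ± 102 CPM (SD, n = 3) in the striatopallidal libraries, and the log2 fold change was -0.14 ± 0.53 (SE), with a 95% interval from -1.38 to 1.10. Without striatopallidal replicate 2 it was -0.49, and without striatopallidal replicate 1 it was 0.10, neither past the threshold. Lrrk1, the paralog of Lrrk2, was under the floor of 3 counts in 3 of 5 libraries, with 1 and 0 counts in the striatomesencephalic libraries, versus 12, 0 and 123 counts in the striatopallidal libraries.

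Vps35, the retromer subunit, stood at 92.3 and 110.4 CPM in the striatomesencephalic libraries, versus 148, 80.2 and 124 CPM in the striatopallidal libraries. Striatopallidal libraries held both the highest and the lowest value. Between the groups the log2 fold change was -0.21 ± 0.46 (SE), with a 95% interval from -1.31 to 0.89, and it was -0.43 without striatopallidal replicate 2. The partners of Vps35 in the retromer core, named for that relation after their values had been seen, also overlapped between the groups. Vps26a averaged 22.3 ± 13.5 CPM (SD, n = 2) in the striatomesencephalic libraries and 13.0 ± 6.35 CPM (SD, n = 3) in the striatopallidal libraries. Vps26b averaged 121 ± 22.9 CPM (SD, n = 2) and Vps29 145 ± 10.6 CPM (SD, n = 2) in the striatomesencephalic libraries, where striatopallidal libraries had 172 ± 67.9 CPM (SD, n = 3) of Vps26b and 204 ± 63.6 CPM (SD, n = 3) of Vps29.

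Synj1 was the steadiest of the 8 genes. The lipid phosphatase stood at 266 and 309 CPM in the striatomesencephalic libraries, versus 295, 355 and 328 CPM in the striatopallidal libraries. Its highest library was 1.33 times its lowest, where the median of this ratio was 2.93 over the 8 genes and 5.35 over all genes tested. The log2 fold change was -0.18 ± 0.33 (SE), with a 95% interval from -0.97 to 0.61, which corresponds to folds of 0.511 to 1.52, and it was -0.12 without striatopallidal replicate 2, the highest library. Synj2, its paralog, ranged more widely, with 14.1 and 61.9 CPM in the striatomesencephalic libraries, versus 13.0, 33.7 and 14.1 CPM in the striatopallidal libraries.

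Dnajc6, the auxilin of neurons, stood at 176 and 210.3 CPM in the striatomesencephalic libraries, versus 203, 149 and 160.5 CPM in the striatopallidal libraries. The spread was again narrow, with a highest over lowest library of 1.41, and the groups interleaved. Its log2 fold change was 0.18 ± 0.38 (SE), with a 95% interval from -0.72 to 1.08, and it was 0.0804 without striatopallidal replicate 2, the lowest library. Gak, the auxilin found outside neurons as well and itself placed near a Parkinson disease risk locus, had 21.9 and 32.5 CPM in the striatomesencephalic libraries, versus 41.4, 24.9 and 48.8 CPM in the striatopallidal libraries.

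Pink1 differed more within the groups than between their means. The mitochondrial kinase stood at 14.0 and 34.8 CPM in the striatomesencephalic libraries, versus 11.9, 35.4 and 18.2 CPM in the striatopallidal libraries. Replicate 2 was the high library in both groups, and the highest of the 5 was 2.98 times the lowest. The log2 fold change was 0.16 ± 0.80 (SE), with a 95% interval from -1.72 to 2.04. Its sign depended on single libraries, at -0.64 without striatomesencephalic replicate 2, at -0.14 without striatopallidal replicate 1 and at 0.69 without striatopallidal replicate 2.

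Fbxo7, the F-box protein, varied most. It had 1752 and 64 counts in the striatomesencephalic libraries, versus 501, 49 and 704 counts in the striatopallidal libraries, or 80.5 and 2.78 CPM in striatomesencephalic and 18.5, 2.55 and 29.5 CPM in striatopallidal neurons. Replicate 2 was the low library in both groups, the reverse of Pink1. Exact Poisson intervals (95%), which cover the counting of reads only, ran from 49.3 to 81.7 counts for the 64 and from 1671 to 1836 counts for the 1752. Reads without molecular identifiers are not independent molecules, so these intervals do not cover the sampling of RNA before amplification. For Fbxo7 the log2 fold change was 1.30 ± 1.39 (SE), with a 95% interval from -1.97 to 4.58. A single library set its sign, at -2.59 without striatomesencephalic replicate 1 and 2.26 without striatomesencephalic replicate 2, and it was 0.79 without striatopallidal replicate 2. In RefSeq, Syn3, a synapsin gene, overlaps Fbxo7, and the sources used here do not give the strand setting of the counts. Syn3 had 1087 and 1096 counts in the striatomesencephalic libraries, versus 870, 8234 and 1299 counts in the striatopallidal libraries, its highest library being one of those where Fbxo7 was low. How reads were shared between the 2 genes was not tested. Skp1, which binds F-box proteins to the ligase, was far steadier, with 237 and 290 CPM in the striatomesencephalic libraries, versus 386, 407 and 366 CPM in the striatopallidal libraries, which gives a log2 fold change of -0.55 ± 0.33 (SE) that did not pass in edgeR's quasi-likelihood test (adjusted p = 0.799).

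Park7, which encodes DJ-1, stood at 33.6 and 19.4 CPM in the striatomesencephalic libraries, versus 24.7, 9.59 and 14.1 CPM in the striatopallidal libraries. Both striatomesencephalic values lay above 2 of the 3 striatopallidal ones, but striatopallidal replicate 1 stood between them. For Park7 the log2 fold change was 0.71 ± 0.74 (SE), with a 95% interval from -1.04 to 2.46, and edgeR's quasi-likelihood test gave an unadjusted p of 0.368, the smallest of the 8. It was 0.44 without striatopallidal replicate 2 and 0.27 without striatomesencephalic replicate 1. Nfe2l2, the transcription factor of the antioxidant response, averaged 13.0 ± 1.92 CPM (SD, n = 2) in the striatomesencephalic libraries and 11.8 ± 7.60 CPM (SD, n = 3) in the striatopallidal libraries. Keap1, which holds that factor in check, averaged 19.2 ± 4.77 CPM (SD, n = 2) in the striatomesencephalic libraries and 34.0 ± 22.4 CPM (SD, n = 3) in the striatopallidal libraries.

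Atp13a2, the lysosomal ATPase, stood at 23.7 and 21.5 CPM in the striatomesencephalic libraries, versus 32.9, 9.75 and 21.1 CPM in the striatopallidal libraries. The striatomesencephalic libraries were close to each other and lay within the striatopallidal range. The log2 fold change was 0.09 ± 0.75 (SE), with a 95% interval from -1.70 to 1.87, and it was -0.27 without striatopallidal replicate 2. In RefSeq, Mfap2 overlaps Atp13a2, and no count of Mfap2 was used here. Its relatives Atp13a1 and Atp13a3 varied more between libraries. Atp13a1 had 410 and 119 counts in the striatomesencephalic libraries, versus 1780, 51 and 100 counts in the striatopallidal libraries. Atp13a3 had 763 and 192 counts in the striatomesencephalic libraries, versus 67, 241 and 39 counts in the striatopallidal libraries.

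**Figure D2:**
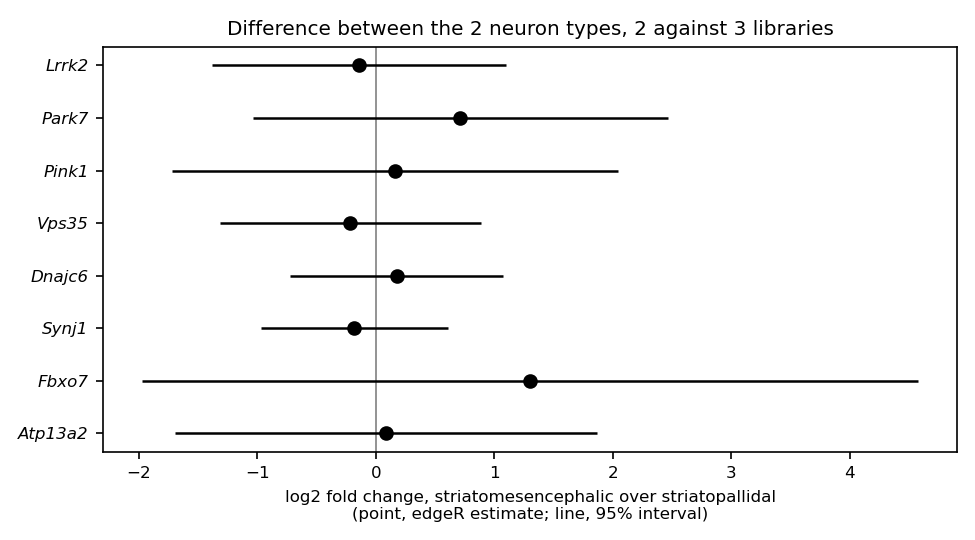
Log2 fold change of each gene, striatomesencephalic over striatopallidal, from edgeR's quasi-likelihood fit of 2 against 3 libraries. Points are estimates and lines 95% intervals, all of which cross 0, from -0.97 to 0.61 for Synj1 to -1.97 to 4.58 for Fbxo7.

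The 8 genes varied among the 5 libraries in several ways, and the ranks and ratios that follow are taken over both groups together. Striatopallidal replicate 2 was the lowest library for 6 of the 8 genes, Lrrk2, Park7, Vps35, Dnajc6, Fbxo7 and Atp13a2, where it was the lowest for 31.3% of all genes tested. It was the highest library for the other 2, Pink1 and Synj1, where it was the highest for 28.1% of all genes. On the log2 scale it lay 0.99 below the gene's own mean over 5 libraries for Lrrk2, 1.05 below for Atp13a2 and 0.95 below for Park7. These shares were noticed after the values had been seen, and the 8 genes share the same 5 libraries. The highest over lowest library ran from 1.33 in Synj1 to 3.50 in Park7, with Fbxo7 apart at 31.5, and Fbxo7 alone lay above the median of 5.35 over all genes. Medians of this ratio over the lists of partner genes described below, 2.37 to 4.68, also lay under 5.35. The biological coefficient of variation estimated by edgeR was below the trend for genes of like abundance in 7 of 8 genes, for example 0.390 against 0.503 in Synj1. It was above the trend in Fbxo7, at 1.01 against 0.731. The share of all genes below the trend was not computed, so whether 7 of 8 is unusual is not known. The ratios of highest over lowest library were not matched for abundance.

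Profiles over the 5 libraries were compared by the Euclidean distance between log2 CPM values centred on each gene's mean, where 0 means the same relative levels in every library. Of the 28 pairs among the 8 genes, Lrrk2 and Atp13a2 were closest (0.473), followed by Vps35 and Dnajc6 (0.560), and Pink1 and Fbxo7 were farthest apart (5.67). Over all genes with a symbol and a mean of at least 10 CPM, the 2 nearest to Lrrk2 were Tpd52l2 (0.0725) and Josd1 (0.110), and the 2 nearest to Synj1 were Ube3c (0.106), a ubiquitin ligase, and Vcp (0.110), an ATPase that unfolds ubiquitinated proteins. The nearest to Vps35 were Tmem87b (0.180) and Ryr2 (0.191), the nearest to Dnajc6 Dmrtc1a (0.0943) and Aebp2 (0.164), and the nearest to Park7 Asxl1 (0.114) and Aldh9a1 (0.178). Those nearest to Pink1 were Ppef2 (0.212) and Suox (0.266), to Atp13a2 AABR07021840.1 (0.132) and RGD1560341 (0.213), and to Fbxo7 Asb14 (1.12), a far larger distance. With 5 libraries and so many genes, near matches arise readily, and nothing about function is drawn from them.

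**Figure D3:**
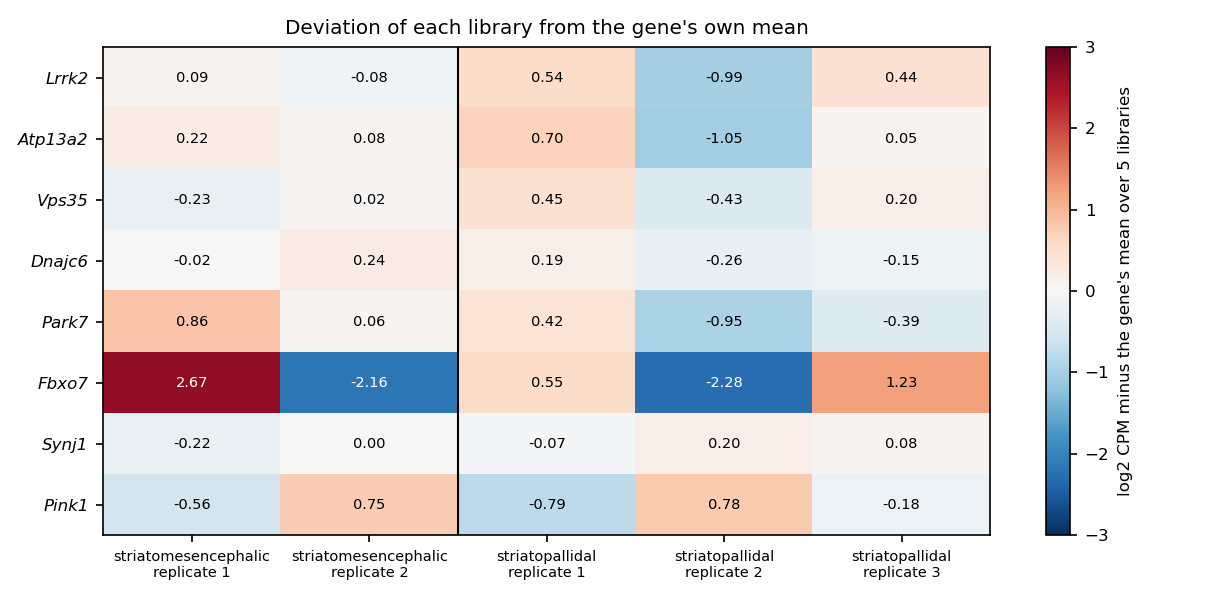
Log2 CPM of each gene in each library minus the gene's own mean over the 5 libraries, with striatomesencephalic libraries left of the line and striatopallidal libraries right of it. Red is above and blue below the mean: striatopallidal replicate 2 is blue for 6 of 8 genes, and Fbxo7 and Pink1 have opposite signs in every library.

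The partners of these genes were read from 8 companion lists, which hold 200 other genes that were tested. None passed an adjusted p of 0.05 in edgeR's quasi-likelihood test (0% of all genes did), 10 had an unadjusted p under 0.05, or 5%, where 6.07% of all genes did, and 21.5% had groups that did not overlap, where 21.6% of all genes did. Both shares are near those of all genes. Of the 10, 6 were higher (2.93% of all genes) and 4 lower (3.14% of all genes) in the striatomesencephalic libraries, and those named below are given as values only. Medians of the lists ran from -0.31 (retromer, 17 genes tested) to 0.20 (SCF ligase and proteasome partners, 20 genes tested), beside -0.06 over all genes.

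Among genes of endocytosis (37 tested, median log2 fold change -0.06), 2 were higher in the striatomesencephalic libraries at an unadjusted p under 0.05 and 0 were lower. Sh3gl3, an endophilin, of the family that bends membranes and recruits synaptojanin, had 156 and 174 CPM in the striatomesencephalic libraries, versus 39.9, 43.7 and 49.9 CPM in the striatopallidal libraries, which gives a log2 fold change of 1.89 ± 0.43 (SE). The groups were well apart, with adjusted p = 0.779 in edgeR's quasi-likelihood test. Clta, a clathrin light chain, had 214 and 281 CPM in the striatomesencephalic libraries, versus 120, 131 and 95.6 CPM in the striatopallidal libraries, which gives a log2 fold change of 1.10 ± 0.39 (SE). Epn1, the epsin adaptor, overlapped between the groups at -2.21 ± 1.06 (SE), and stood at -0.96 without striatopallidal replicate 3, its highest library.

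Among substrates and partners of Lrrk2 (23 tested, median -0.08), 1 was higher and 1 lower at an unadjusted p under 0.05. Rab3b, a vesicle GTPase of the substrate family, had 49.1 and 114 CPM in the striatomesencephalic libraries, versus 22.5, 8.81 and 10.3 CPM in the striatopallidal libraries, which gives a log2 fold change of 2.55 ± 0.72 (SE). Mapk8ip3, an adaptor that links phosphorylated Rab proteins to motors, had 11.9 and 12.9 CPM in the striatomesencephalic libraries, versus 45.7, 34.6 and 126 CPM in the striatopallidal libraries, or -2.47 ± 0.80 (SE). Ppm1h, the phosphatase that reverses Rab phosphorylation by Lrrk2, had 219.7 and 299.9 CPM in the striatomesencephalic libraries, versus 55.7, 158 and 129 CPM in the striatopallidal libraries, or 1.19 ± 0.52 (SE). Each of these had adjusted p = 0.779 in edgeR's quasi-likelihood test.

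In the mitophagy list (33 tested, median -0.28), 11 genes had positive and 22 negative log2 fold changes, where 47.4% of all genes were above 0. Whether the list differs from all genes was not tested. Usp15, a deubiquitinase that opposes mitophagy, had 166 and 322 CPM in the striatomesencephalic libraries, versus 58.1, 29.6 and 71.9 CPM in the striatopallidal libraries, which gives a log2 fold change of 2.20 ± 0.55 (SE). Usp30, a deubiquitinase of the mitochondrial outer membrane that also opposes it, had the opposite sign at -2.03 ± 0.97 (SE), and at -1.16 without striatopallidal replicate 2, its highest library. Pmpcb, a subunit of the protease that processes Pink1 on import, had 49.9 and 58.5 CPM in the striatomesencephalic libraries, versus 106, 180 and 95.2 CPM in the striatopallidal libraries, or -1.23 ± 0.51 (SE).

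Retromer cargo and coat genes (17 tested) included Igf2r, the receptor that carries enzymes to lysosomes and is returned by retromer, with 157 and 340 CPM in the striatomesencephalic libraries, versus 103, 107 and 48.4 CPM in the striatopallidal libraries, which gives a log2 fold change of 1.53 ± 0.54 (SE). Wash1, of the WASH complex that retromer recruits, was at 2.02 ± 0.96 (SE) and Sort1, another retromer cargo receptor, at -0.47 ± 0.33 (SE). Among partners of Fbxo7 (20 tested), Cdk6, a cell cycle kinase, had 74 and 99 counts in the striatomesencephalic libraries, versus 627, 532 and 1226 counts in the striatopallidal libraries, or -3.15 ± 0.81 (SE) on the log2 scale. Fbxo2 was low and overlapped between the groups, with 91 and 44 counts in the striatomesencephalic libraries, versus 53, 8 and 23 counts in the striatopallidal libraries. Its log2 fold change was 1.45 ± 1.18 (SE).

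Lysosome genes (36 tested, median 0.01) were evenly split, with 18 above and 18 below 0, where 47.4% of all genes were above 0. Atp6v0a1, a subunit of the proton pump, had 346 and 427 CPM in the striatomesencephalic libraries, versus 202, 125 and 241 CPM in the striatopallidal libraries, which gives a log2 fold change of 1.03 ± 0.41 (SE). Tfeb, a transcription factor of lysosome genes, had 3 and 14 counts in the striatomesencephalic libraries, versus 74, 3 and 404 counts in the striatopallidal libraries. Antioxidant genes (21 tested, median 0.14) had 0 members at an unadjusted p under 0.05, with Sod2 at -1.28 ± 0.63 (SE), Prdx6 at -1.58 ± 0.86 (SE) and Prdx1 at 1.26 ± 0.71 (SE). Striatopallidal replicate 2 was the highest library for Sod2 and Prdx6, which stood at -0.64 and -0.79 without it. Of other genes linked to Parkinson disease (15 tested, median -0.05), 0 had an unadjusted p under 0.05. Tmem175, a lysosomal channel, was at 0.84 ± 0.52 (SE) and Lrp10, a receptor, at -1.56 ± 0.97 (SE), or -0.996 without striatopallidal replicate 2. Rab32 had 0 and 121 counts in the striatomesencephalic libraries, versus 1074, 362 and 512 counts in the striatopallidal libraries.

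**Figure D4:**
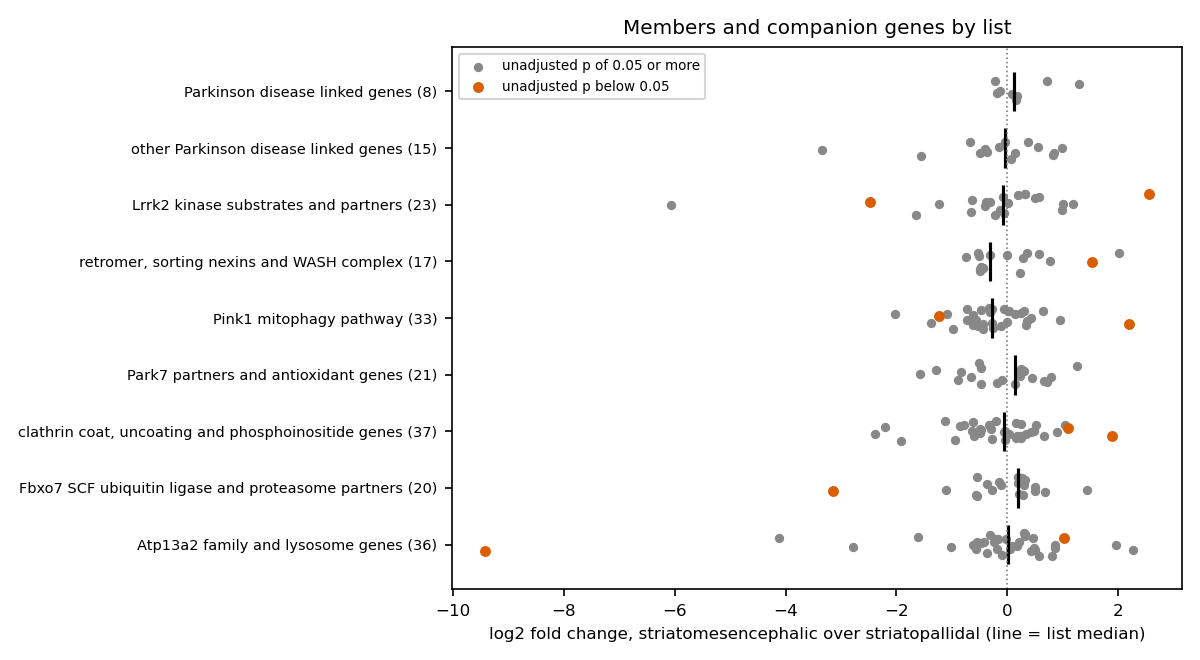
Log2 fold change, striatomesencephalic over striatopallidal, of the 8 genes and of each companion list, with the number of genes tested in brackets. Each point is 1 gene, black lines are list medians, and orange marks an unadjusted p under 0.05: the 8 genes hold none, and the companion lists 10.

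The authors' deposited table gives the same groups with the sign turned round, striatopallidal over striatomesencephalic, on the same libraries. In the authors' deposited table the log2 fold change was -0.19 for Lrrk2, -0.91 for Park7, -0.22 for Pink1, 0.02 for Vps35, -0.31 for Dnajc6, 0.08 for Synj1, -0.61 for Fbxo7 and -0.43 for Atp13a2. Adjusted p-values in the authors' deposited table ran from 0.927 to 0.998 over these genes, and 0 of 12054 genes passed 0.05. Lrrk2 is the 1 gene of the 8 whose direction differs, since its negative value there means a higher level in the striatomesencephalic libraries. The direction also differed for 1383 of the 11919 genes in both comparisons, so 1 of 8 is not read as a trait of these genes.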

How the data were processed

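RNA of laser-captured rat striatal neurons was sequenced in 2 striatomesencephalic and 3 striatopallidal libraries. Per the labels' protocols, polyadenylated RNA was reverse transcribed with the REPLI-g Single Cell Kit. TopHat2, HTSeq, edgeR and limma with build Rnor_6.0 are named, per the submitters' processing notes, without roles or versions. The authors deposited read counts for 32285 Ensembl genes per library, used unscaled here, and a comparison of 12054 genes with a log2 fold change and a p-value, the source of all symbols.

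Counts were tested with edgeR 4.0.16 (R 4.3.3) on all 5 libraries. Genes were kept by filterByExpr, scaled by TMM and fitted with glmQLFit and glmQLFTest, with Benjamini-Hochberg adjustment over 13811 genes at 0.05. Each standard error is the absolute log2 fold change divided by the square root of F. Exact permutation of 2 against 3 libraries has a smallest p of 0.1 and was not used. A chi-square test of each pair of libraries gave 164 to 585 per degree of freedom, so no pair looked like 1 library deposited again. The fit was tested on simulated counts. With the spread set to edgeR's trend it recovered 9 of 95 genes changed 4-fold and 78 of 105 changed 16-fold, and called 0 unchanged genes. DESeq2 1.42.0, limma 3.58.1, edgeR's exact test, other scalings, no filter, left-out libraries and a replicate block were alternatives.

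The 8 genes and the companion lists were chosen with earlier results of these data known. List genes with no symbol in the authors' deposited table were not tested. Named genes were the 8, the 3 of each list with the smallest p, the 2 nearest profiles per gene (prior count 1) and partners named by relation. Some genes that this rule names are not reported here.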

Additional observations from a re-analysis of the deposited data

How the results depend on the processing

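Of 104 alternative log2 fold changes of the 8 genes, 97 kept their direction, 7 were reversed and 0 passed the threshold, with a lowest adjusted p of 0.684 across edgeR, DESeq2 and limma fits. Many of the 104 refit the same 5 libraries with another scaling, filter or test, and none of those was reversed. The reversals came from leaving out a library or from the replicate block, and fell on Lrrk2, Pink1, Fbxo7 and Atp13a2. Leaving out single libraries gave -0.49 to 0.10 for Lrrk2, 0.27 to 1.15 for Park7, -0.64 to 0.69 for Pink1 and -0.43 to -0.02 for Vps35. It gave 0.05 to 0.31 for Dnajc6, -0.29 to -0.07 for Synj1, -2.59 to 2.26 for Fbxo7 and -0.27 to 0.54 for Atp13a2. The number of these genes whose groups did not overlap was 1 and 3 without striatomesencephalic replicates 1 and 2 (48.2% and 49.8% of all genes) and 4, 2 and 0 without striatopallidal replicates 1, 2 and 3 (32.9%, 39.3% and 32.1% of all genes). An arm of 1 library is assumed to vary like the other. Over all genes, DESeq2 called 226 with 1496 at an unadjusted p under 0.05, the exact test called 45, and leaving out libraries gave 604 to 1121 genes at an unadjusted p under 0.05 and 0 past the threshold. The cause of these differences was not tested.

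Whether the replicate numbers pair the libraries is not known. Only 2 numbers are shared, and correlations of same-numbered deviations from the group means were -0.0179 and -0.0330. These cannot settle the pairing, since the deviations of the 2 striatomesencephalic libraries mirror each other. With the replicate number as a block, Lrrk2 stood at 0.23 in place of -0.14 and 465 genes had an unadjusted p under 0.05 in place of 839, with 1 residual degree of freedom.

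Medians of the companion lists without single libraries ran from -0.17 to 0.00 for other Parkinson disease linked genes, -0.10 to 0.0196 for Lrrk2 partners, -0.37 to -0.10 for retromer, -0.33 to -0.20 for mitophagy, -0.27 to 0.0202 for antioxidant genes, -0.20 to 0.18 for endocytosis, -0.0035 to 0.16 for SCF partners and -0.23 to 0.12 for lysosome genes, with 0 genes past the threshold. The 8 genes had 49 to 8004 counts per library.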
